A study of Mus musculus with 14 samples.

Results

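The cell cycle was followed through 41 genes, listed by name: 22 that act in mitosis, 13 that act in S phase and 6 G1/S cyclins and transcription factors. The list was taken as given, but it was chosen with earlier results of these data known. All 41 were found by Entrez ID among the 27179 genes of the keratinocyte table and the 24411 genes of the epidermis table, and all 41 passed the filter on low counts in both. The lowest count of any member in any library was 255 in keratinocytes and 47 in epidermis.

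The material came from newborn mice carrying the floxed allele Trp63-Ex13fl/fl, in which exon 13 of the gene for the transcription factor p63 can be removed. Mice with the floxed allele alone are called p63alpha, and mice that also carry KRT14-Cre are called p63beta. The KRT14 promoter drives Cre in basal keratinocytes, and both genotypes carry the floxed allele. Skin cells that neither are basal keratinocytes nor stem from them keep the exon. Primary keratinocytes were grown in low-calcium medium with 0.05 mM CaCl2, which keeps them proliferating, and gave 3 libraries per genotype. Whole epidermis, separated from dermis with trypsin, gave 4 libraries per genotype. Whether libraries of a genotype stem from different animals is not stated in the labels. A p-value here sets the genotype difference against library-to-library spread, which may be technical.

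A dividing cell licenses its replication origins with the MCM helicase in G1, copies its DNA in S phase and separates the chromosomes in mitosis. E2F factors, released by cyclin D and cyclin E kinases, switch on the S phase genes at the G1/S boundary. Later, FOXM1 and the MYBL2-containing MuvB complex switch on the mitosis genes, many of which carry CCAAT boxes and a cell cycle homology region (CHR) close to the start site. In skin, division is largely limited to the basal layer, which p63 maintains, and cells that move up and differentiate stop dividing. In whole epidermis and in a culture alike, fewer dividing cells and less of these RNAs per dividing cell cannot be told apart.

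The promoters of the mitosis and S phase members with the highest levels in epidermis show elements in which the 2 groups differ. Each run holds 250 bases before to 50 after the start in RefSeq (GRCm38.p6), 5′ to 3′ on the gene's strand. Capitals mark motifs sought on both strands. For the CHR these were the spelling TTTGAA and its common variant with the letters TTCGAA. For the binding site of the factor NF-Y the letters were CCAAT. The E2F motif was searched as TTTCCCGC, TTTGGCGC, TTTGGCGG or TTTCCCGG. No marked motif overlaps another.
Top2a (mitosis), chr11:99024140-99024439, minus strand: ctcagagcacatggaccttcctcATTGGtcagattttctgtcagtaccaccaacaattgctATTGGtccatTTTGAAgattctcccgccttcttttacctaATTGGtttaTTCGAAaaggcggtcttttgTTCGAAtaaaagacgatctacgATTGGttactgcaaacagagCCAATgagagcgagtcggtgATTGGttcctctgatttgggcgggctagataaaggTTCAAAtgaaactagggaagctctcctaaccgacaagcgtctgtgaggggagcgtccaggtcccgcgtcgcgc
Mki67 (mitosis), chr7:135716330-135716629, minus strand: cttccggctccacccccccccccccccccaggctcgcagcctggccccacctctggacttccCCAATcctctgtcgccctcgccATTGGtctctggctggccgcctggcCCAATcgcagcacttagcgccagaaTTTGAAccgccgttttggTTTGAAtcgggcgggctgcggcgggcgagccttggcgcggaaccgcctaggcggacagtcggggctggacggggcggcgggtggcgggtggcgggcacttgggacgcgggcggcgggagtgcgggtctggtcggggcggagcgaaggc
Pcna (S phase), chr2:132253131-132253430, minus strand: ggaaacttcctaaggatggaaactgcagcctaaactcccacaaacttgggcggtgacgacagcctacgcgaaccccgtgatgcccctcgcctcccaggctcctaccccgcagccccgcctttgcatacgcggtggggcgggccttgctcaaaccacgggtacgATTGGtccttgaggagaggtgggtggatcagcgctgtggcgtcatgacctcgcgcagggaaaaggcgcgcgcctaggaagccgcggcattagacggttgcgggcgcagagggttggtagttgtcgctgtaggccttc
Mcm6 (S phase), chr1:128359656-128359955, minus strand: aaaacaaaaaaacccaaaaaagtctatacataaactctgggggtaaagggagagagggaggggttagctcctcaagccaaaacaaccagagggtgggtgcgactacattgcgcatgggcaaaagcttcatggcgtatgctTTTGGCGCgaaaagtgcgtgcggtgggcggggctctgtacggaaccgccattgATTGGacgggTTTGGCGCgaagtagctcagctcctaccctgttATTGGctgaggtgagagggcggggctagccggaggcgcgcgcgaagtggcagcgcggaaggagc

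Top2a, which encodes the topoisomerase that untangles sister chromosomes, held 6 CCAAT and 4 CHR matches, and Mki67, the proliferation marker that coats mitotic chromosomes, held 3 and 2. Mcm6, a subunit of the replicative helicase, held 2 E2F matches, from -110 to -103 and from -47 to -40 relative to the start, and 2 CCAAT matches. Pcna, the sliding clamp of the DNA polymerases, held a single CCAAT match and no E2F spelling of those searched. The table held a promoter for 32 of the 41 members, which gave 33 promoters. A CHR spelling was in 14 of 18 mitosis promoters (77.8%), in 2 of 12 S phase promoters (16.7%) and in 19.2% of all 32851 promoters of the table. The E2F spellings gave the opposite picture, with 1 of 18 mitosis promoters (5.56%), 6 of 12 S phase promoters (50%) and 3.32% of all promoters. CCAAT was frequent in both, in 16 of 18 (88.9%) and 9 of 12 (75%), against 37.4% of all. The 3 promoters of the G1/S group in the table, those of E2f1, Ccne1 and Mybl2, held none of the spellings. A match is a description of the letters, and no binding was measured.

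The libraries differed in ways that touch these genes. Keratinocyte libraries held 20688027 to 30066041 counts and epidermis libraries 21290068 to 44909629. The targeted gene, Trp63, was 1.98-fold higher in p63beta keratinocytes (edgeR adjusted p 0.0297), while in epidermis its levels of 259 to 631 CPM (counts scaled to library size) in p63alpha and 545 to 765 in p63beta overlapped. These counts take in the whole gene and do not show whether exon 13 was lost. None of the 8 basal keratinocyte markers was below 1 CPM throughout a group in either system. In keratinocytes, both libraries numbered 1 had lower summed basal markers (25295 and 25338 CPM, against 34003 to 37351 in the other 4) and higher summed suprabasal markers (1251 and 1234 CPM, against 431 to 544). Library p63beta 3 had 3302 CPM of 8 heart muscle markers, against 70.8 to 171 in the other 5, and it was also the highest in 5 of 8 fibroblast markers, among them Dcn (51.7 CPM) and Col3a1 (42.3). The summed fibroblast markers were highest in p63alpha 3 (1404 CPM, against 143 to 312), through Vim at 1213 CPM, while Dcn (1.67) and Col3a1 (2.76) were low there. In epidermis, WT3 (p63alpha) and EP12 (p63beta) had the lowest summed basal markers (9337 and 8587 CPM, against 13533 to 20217). The epidermis columns carry 2 naming codes, 1 for the 6 libraries whose names start with EP and 1 for WT3 and KO2, and the latter also stands in the header of the keratinocyte count table.

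In the main keratinocyte fit no member passed the test for a difference between the genotypes. With edgeR, 0 of the 41 members were called at an adjusted p under 0.05, where 14 of 13820 genes tested (0.101%) were called. DESeq2, which called 1.63% of all genes, the authors' deposited table, which called 1.5%, and a fit with the replicate number as a block also called 0 members. The block raised the count over all genes to 37 (0.268%). At an unadjusted p under 0.05 edgeR had 1 member, Nusap1, against 6.85% of all genes, and the block had 3, Nusap1, Aurka and Ccnb2, against 12.9%. The 41 log2 fold changes (p63beta over p63alpha) ran from -0.47 to 0.27, with adjusted p-values of 0.556 to 0.999. For all 41 members the 95% interval of the fold change lay inside a 2-fold change in either direction.

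**Figure D1:**
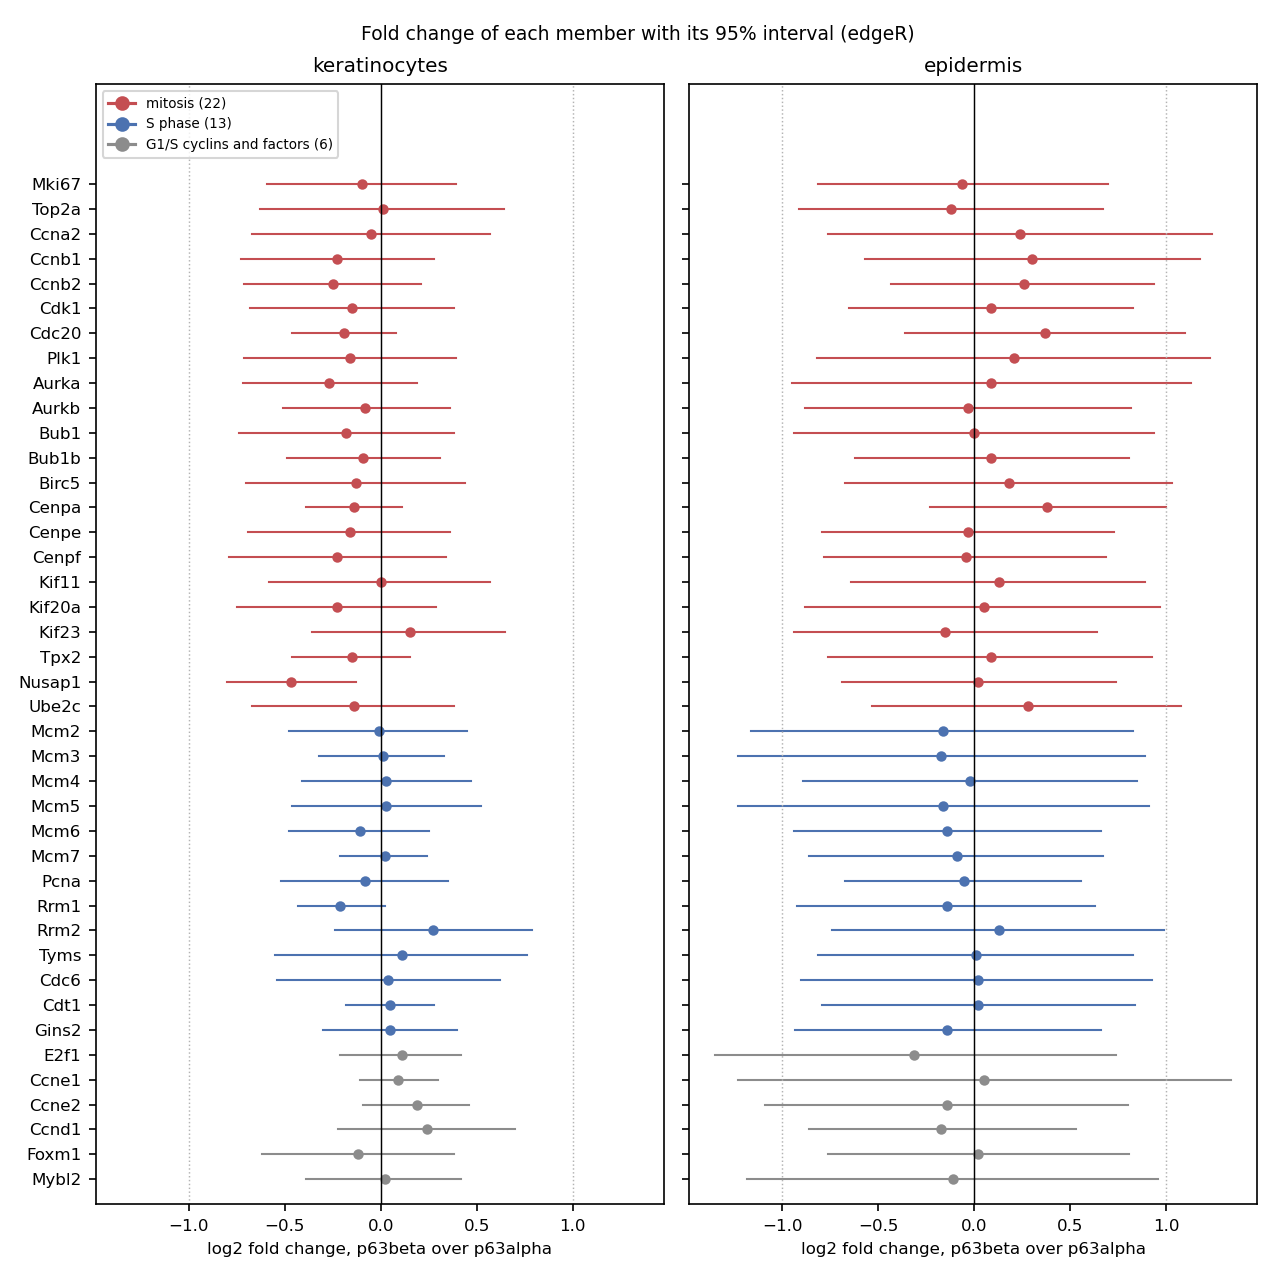
Log2 fold change (p63beta over p63alpha, x axis) of each of the 41 members (y axis) in keratinocytes (left, 3 libraries per genotype) and epidermis (right, 4 per genotype). Points are edgeR estimates, bars 95% intervals, and dotted lines mark 2-fold changes. In keratinocytes 20 of 22 mitosis members lie below 0, and the intervals are wider in epidermis.

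By role, the mitosis members lay mostly on the lower side. In keratinocytes 20 of 22 had a negative log2 fold change, with a median of -0.15, beside 50.3% of all genes and a median of 0.00. Of the S phase members 9 of 13 were positive (median 0.03), and of the G1/S group 5 of 6 (median 0.10), beside 49.7% of all genes. These are counts of directions, and the members of a group share their libraries. Without p63alpha library 1 the mitosis count turned to 15 of 22 positive with a median of 0.06, in a fit that keeps p63beta library 1. When both libraries numbered 1 were left out of the fit with the block, an alternative added after seeing the data, 13 of 22 were negative with a median of -0.05.

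Nusap1, which bundles spindle microtubules around the chromosomes, measured 30.6, 26.7 and 21.7 CPM in p63alpha libraries 1, 2 and 3 and 19.1, 18.9 and 19.2 CPM in p63beta. All 3 p63beta libraries lay below all 3 p63alpha libraries, and the p63beta values were nearly equal. On the log2 scale p63beta differed by -0.47 ± 0.14 (SE; edgeR, adjusted p 0.556), with a 95% interval of -0.80 to -0.13, and with the block the adjusted p was 0.244. Rrm1, the large subunit of ribonucleotide reductase, which makes the deoxynucleotides for replication, was the other member whose groups did not overlap. It measured 355, 312 and 294 CPM in p63alpha and 279, 276 and 276 CPM in p63beta, with a log2 fold change of -0.21 ± 0.09 (SE, edgeR adjusted p 0.740). Groups failed to overlap in 2 of 41 members, both lower in p63beta, and in 12.3% of all genes, 5.8% lower.

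The small subunit of the same enzyme lay on the other side. Rrm2 measured 223, 130 and 141 CPM in p63alpha and 215, 197 and 186 CPM in p63beta, and its log2 fold change of 0.27 ± 0.21 (SE, edgeR adjusted p 0.905) was the highest of the members. Library p63alpha 1 was the highest of all 6, and the other 2 p63alpha libraries were the lowest. When the pair numbered 1 was left out of the fit with the block, Rrm2 became the single member called (0.50, edgeR adjusted p 0.0396). That fit, with 2 libraries per genotype, called 585 genes in all, where the block with every pair called 37 (0.268%). At an unadjusted edgeR p under 0.05 it had 10 of the 41 members and 2941 genes. The dependence on pair 1 was seen after the values were known.

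Some kinases and regulators of mitosis had small differences with the same sign in each pair of same-numbered libraries. The labels state no pairing, and it was taken from these same data, weakly for number 3 (correlation 0.151). Aurka, the spindle pole kinase, measured 46.8, 39.4 and 35.0 CPM in p63alpha and 41.9, 31.3 and 27.5 CPM in p63beta, lower in each same-numbered pair. The groups overlapped, and the log2 fold change stood at -0.27 ± 0.19 (SE, edgeR adjusted p 0.888). Ccnb2, a cyclin of the mitotic kinase, measured 27.0, 22 and 19.5 CPM in p63alpha and 23.7, 17.8 and 16.3 CPM in p63beta, again lower in each pair (-0.25 ± 0.19, adjusted p 0.903). With the block, in which each pair is compared with itself, the values were -0.28 ± 0.08 for Aurka (edgeR adjusted p 0.255) and -0.25 ± 0.08 for Ccnb2 (0.316). The median SE of the 41 members was 0.19 without the block and 0.09 with it, beside 0.17 and 0.11 over all genes.

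Cdk1, the mitotic kinase itself, and Plk1, the polo-like kinase, were lower in each pair as well, with log2 fold changes of -0.15 and -0.16. Cdc20, which directs the anaphase-promoting complex, had -0.19, and Cenpa, the histone of centromeres, had -0.14 with values of 26.7, 25.8 and 23.1 CPM against 24.2, 23.4 and 21.1. Cenpa was lower by 0.14 on the log2 scale in every pair. In all, 12 of 22 mitosis members were lower in p63beta in all 3 pairs, as were 2 of 13 S phase members (Mcm6 and Rrm1) and 0 of 6 in the G1/S group. Over the 41 members that made 14, beside 19.3% of all genes. These counts take differences of any size. Higher in all 3 pairs were 2 members, Kif23, a motor of the central spindle, and Ccne2, an S phase cyclin, beside 17.6% of all genes.

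Of the remaining mitosis members, Aurkb, Bub1, Birc5, Kif20a and Tpx2 were also lower in all 3 pairs. Each had a pair with almost no difference on the log2 scale. In pair 2 these were 0.00 (Bub1) and -0.02 (Aurkb and Birc5), and in pair 3 -0.02 (Kif20a) and -0.01 (Tpx2). Others lay close to 0 or differed mainly in pair 1. Mki67 measured 172, 108 and 103 CPM in p63alpha and 123, 117 and 118 CPM in p63beta. Only p63alpha library 1 stood above the rest, and the log2 fold change stood at -0.10 ± 0.20 (SE, edgeR adjusted p 0.973). Top2a measured 300, 167 and 170 CPM against 256, 197 and 187, high in both libraries numbered 1 (0.01 ± 0.26, adjusted p 0.998). Cenpe and Cenpf, a kinetochore motor and a kinetochore protein, had within-pair differences of -0.51 and -0.65 in pair 1 but 0.18 and 0.22 in pair 3. Bub1 and Bub1b of the spindle checkpoint had log2 fold changes of -0.18 and -0.09, and Aurkb and Birc5 of the chromosomal passenger complex -0.08 and -0.13. Kif11, the motor that separates the spindle poles, had 0.00, Kif20a, a motor of cytokinesis, -0.23, and Tpx2, the activator of Aurora A, -0.15. The cyclins Ccna2 and Ccnb1 had -0.05 and -0.23, and Ube2c, a ubiquitin-conjugating enzyme of the anaphase-promoting complex, had -0.14.

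**Figure D2:**
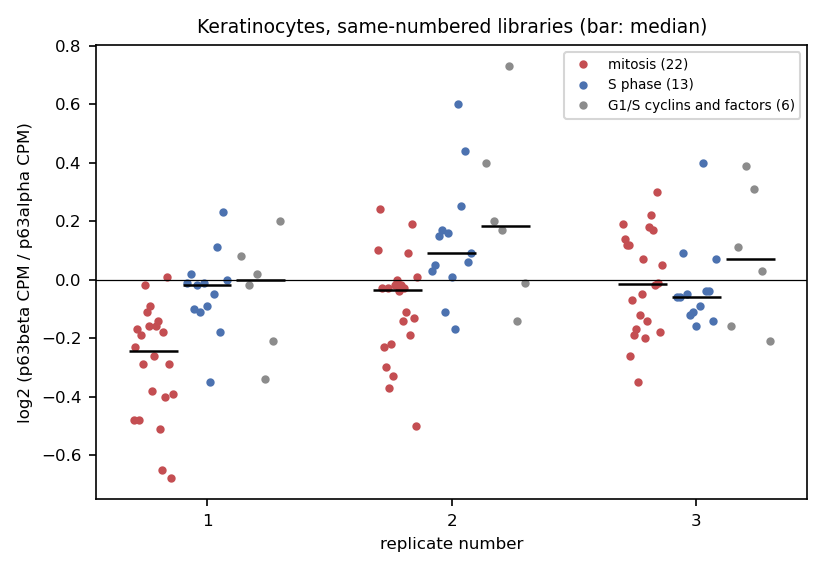
Log2 ratio of CPM in p63beta over p63alpha (y axis) within each pair of same-numbered keratinocyte libraries (x axis), 1 point per member, with bars at the median of each role. Of the 22 mitosis members 21 lie below 0 in pair 1, with a median of -0.24, while the medians of pairs 2 and 3 are -0.04 and -0.01.

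The pairs differed in what they showed. In pair 1, 21 of 22 mitosis members were lower in p63beta, with a median of -0.24 on the log2 scale, while the 13 S phase members had a median of -0.02. Pair 2 had mitosis and S phase medians of -0.04 and 0.09, with 16 of 22 and 2 of 13 lower. Pair 3 had -0.01 and -0.06, with 12 of 22 and 10 of 13 lower.

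Helicase and clamp genes differed little between genotypes. The 6 subunits of the MCM helicase had log2 fold changes of -0.11 (Mcm6) to 0.03 (Mcm4 and Mcm5). Mcm6 measured 197, 161 and 150 CPM in p63alpha and 183, 149 and 138 CPM in p63beta. The values in each pair were lower in p63beta, but the groups overlapped (-0.11 ± 0.15, SE, edgeR adjusted p 0.962). Mcm7 had the narrowest interval of the 6, from -0.21 to 0.24. Pcna measured 160, 113 and 122 CPM against 150, 114 and 109, and its log2 fold change came to -0.08 ± 0.18 (SE, edgeR adjusted p 0.974). The licensing factors Cdc6 and Cdt1, the replisome subunit Gins2 and thymidylate synthase, Tyms, had 0.04, 0.05, 0.05 and 0.11. Cdt1 was the single member with its lowest value in p63alpha library 1, at 34.6 CPM against 35.8 to 40.7 in the other 5.

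Among the G1/S group, Ccnd1, the cyclin that answers growth signals, measured 376, 273 and 324 CPM in p63alpha and 298, 452 and 403 CPM in p63beta. It was lower in pair 1 and higher in pairs 2 and 3 (0.24 ± 0.19, SE, edgeR adjusted p 0.905). Ccne2 measured 22.7, 19.4 and 18.3 CPM against 23, 21.9 and 23.9 (0.19 ± 0.11, adjusted p 0.842). The p63beta values for Ccne2 were higher in each pair, yet the highest p63alpha library lay above the lowest p63beta library. E2f1, which switches on S phase genes, had 0.11, Ccne1 had 0.09, and Foxm1 and Mybl2, the activators of mitosis genes, had -0.12 and 0.02.

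For the means by role, the spread within the p63alpha libraries was larger than the difference between genotypes, and the high libraries were those numbered 1. Both libraries numbered 1 stood above the other 4 in 30 of 41 members (18 mitosis, 10 S phase and 2 G1/S), beside 21.3% of all genes. These are the libraries with lower summed basal and higher summed suprabasal markers, and the part of that in the result was not tested. The basal sum is mostly Krt5 and Krt14. Krt5, Krt14, Itgb4 and Col17a1 were lower in both libraries numbered 1 than in the other 4, Itgb1 and Krt15 were higher, and Itga6 and Dst were mixed. The mean log2 CPM of the mitosis members was 5.96, 5.48 and 5.35 in p63alpha libraries 1, 2 and 3 and 5.68, 5.39 and 5.34 in p63beta. That gave 5.60 ± 0.32 and 5.47 ± 0.18 (SD, n = 3 each), a difference of -0.13 with overlapping groups. For S phase the means were 6.39 ± 0.23 and 6.41 ± 0.18 (SD, n = 3 each), and for G1/S 5.45 ± 0.15 and 5.54 ± 0.06. The S phase mean exceeded the mitosis mean by 0.69, 0.75 and 0.93 in p63alpha and 0.94, 0.98 and 0.91 in p63beta, which overlapped by a small margin. Leaving out the libraries with high heart muscle markers or high Vim changed no call of a member: without p63beta 3 the mitosis median was -0.10, and without p63alpha 3 it was -0.26.

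**Figure D3:**
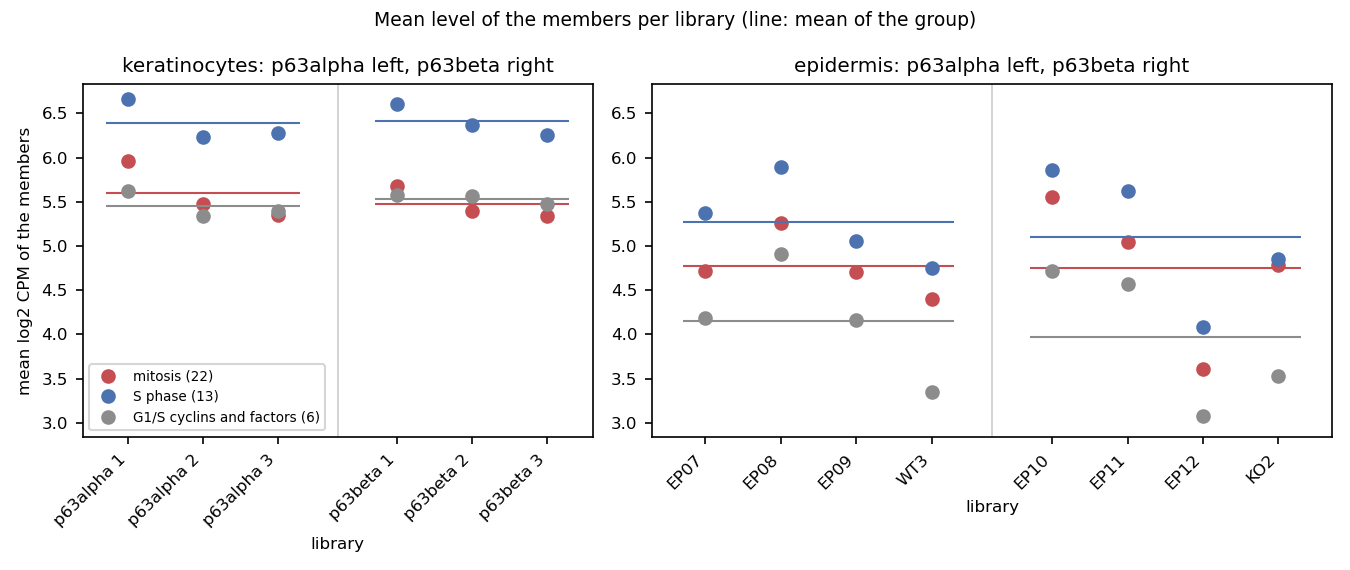
Mean log2 CPM of the members by role (y axis) in each library (x axis), for keratinocytes (left) and epidermis (right), with p63alpha left and p63beta right of the grey line and coloured lines at group means. The mitosis means span 0.62 over the 6 keratinocyte libraries and 1.95 over the 8 epidermis libraries, and groups overlap for every role in both systems.

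In epidermis the genotype again left no member past the test. EdgeR called 0 of 41 members, where 32 of 13796 genes (0.232%) were called, and DESeq2 (1.03% of all genes), the authors' deposited table (0.896%) and a fit with the column naming as a term (0.275%) also called 0. At an unadjusted p under 0.05 edgeR had 0 members, beside 4.64% of all genes. Mitosis members were positive in 16 of 22 (median 0.09), S phase members in 4 of 13 (median -0.09) and the G1/S group in 2 of 6 (median -0.13), beside 49.3% of all genes and a median of 0.00. On the log2 scale of the authors' TPM (transcript levels scaled to length and to the same total in each library), plus a pseudocount of 1, the mitosis median was -0.12 with 6 of 22 positive and the S phase median -0.27, and the median of all genes was -0.09. The mitosis median thus has the opposite sign under this alternative, which changes the unit and the fit together and also lowers the median of all genes. The mean log2 CPM of the mitosis members differed by -0.02, opposite in sign to the edgeR median. Intervals lay inside a 2-fold change for 26 of 41 members, and the groups overlapped in all 41, while 3.07% of all genes had no overlap.

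What stood out in epidermis was the spread between libraries of a genotype. EP12 was the lowest of the 8 libraries in 38 of 41 members, beside 17.4% of all genes. EP10 was the highest in 24 and EP08 in 15, beside 11.1% and 9.94% of all genes. From the lowest to the highest library a member changed by a median of 3.52-fold, with a range of 2.36 (Pcna) to 6.92 (Aurka), and the median over all genes was 2.08-fold. In keratinocytes the median over the members was 1.60-fold and over all genes 1.48-fold. The extremes lay in both genotypes, since EP08 is p63alpha while EP10 and EP12 are p63beta.

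**Figure D4:**
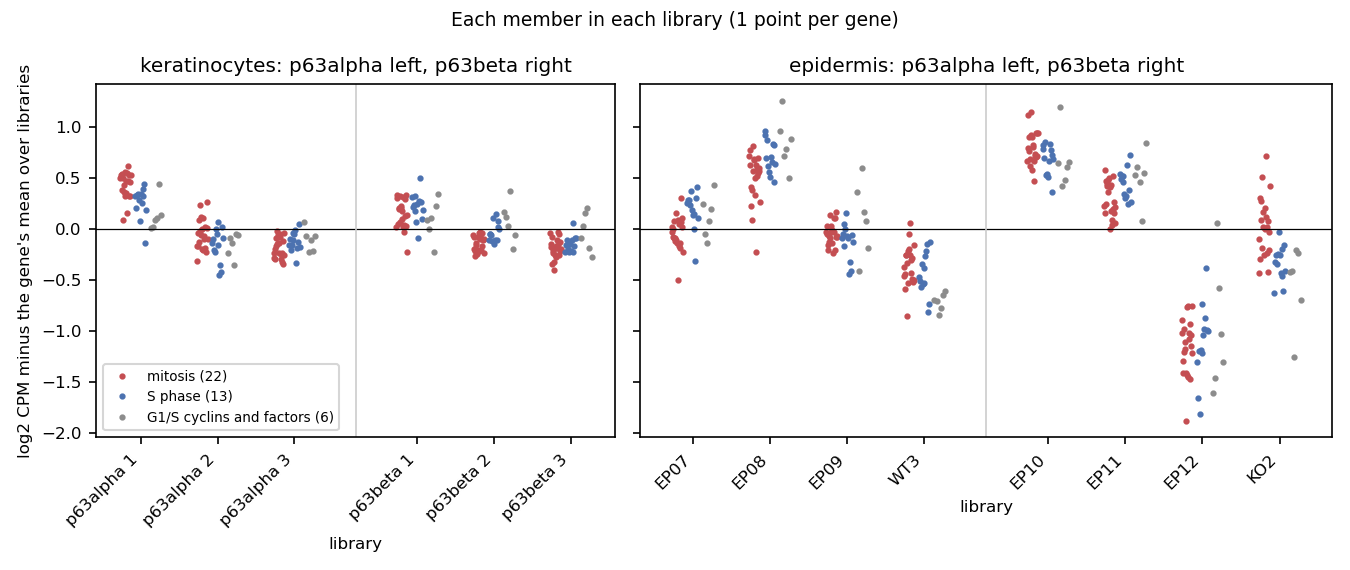
Log2 CPM of each member minus its own mean over the libraries of that system (y axis), 1 point per gene, by library (x axis), for keratinocytes (left) and epidermis (right). In epidermis EP12 lies lowest for 38 of 41 members, EP10 highest for 24 and EP08 highest for 15, and in keratinocytes both libraries numbered 1 lie above the other 4 for 30.

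Of the 22 mitosis members 19 had their highest value in EP10, and Mki67 was 1 of 2 with it in EP08. It measured 103, 166, 99.3 and 73.8 CPM in p63alpha libraries EP07, EP08, EP09 and WT3, and 161, 119, 50.1 and 94.7 CPM in p63beta libraries EP10, EP11, EP12 and KO2. The high values EP08 and EP10 lie in different genotypes, and the log2 fold change stood at -0.06 ± 0.34 (SE, edgeR adjusted p 1). Top2a, in the same order, measured 101, 176, 105 and 79.4 CPM against 178, 115, 55.6 and 76.4 (-0.12 ± 0.36). Aurka had the widest span, with 12.6, 16.7, 12.4 and 7.85 CPM against 21.3, 15.7, 3.07 and 12.7 (0.09 ± 0.47).

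Cenpa departed from the rest, with its highest value in KO2. It measured 17.7, 17.0, 16.9 and 20.8 CPM in p63alpha and 27.5, 22.5, 11.8 and 32.6 CPM in p63beta. All p63beta libraries but EP12 lay above every p63alpha library, and the log2 fold change stood at 0.38 ± 0.28 (SE, edgeR adjusted p 1), the highest of the 41. Cdc20 was alike, at 28.3, 32.5, 29.2 and 24.4 CPM against 49.3, 41.1, 13.6 and 43.5 (0.37 ± 0.33), with EP12 again the single p63beta library under the p63alpha range. The B cyclins Ccnb1 and Ccnb2 had 0.30 and 0.26, Ube2c 0.28, Ccna2 0.24, Plk1 0.21 and Birc5 0.18. The other 14 mitosis members had log2 fold changes of -0.15 (Kif23) to 0.13 (Kif11).

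Without EP12 all 22 mitosis members were positive, with a median of 0.35, and all 13 S phase members, with a median of 0.15. Of the mitosis members 5 then had an unadjusted p under 0.05, but the lowest adjusted p was 0.236 (edgeR). Without EP10 the medians were -0.24 and -0.30, and without EP08 they were 0.30 and 0.15. The direction in epidermis thus rests on single libraries of either genotype.

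The S phase members had a like order of libraries. Mcm2 measured 66.9, 106, 52.9 and 40.5 CPM in p63alpha and 96.6, 81.5, 22.8 and 36.4 CPM in p63beta (-0.16 ± 0.45, SE, edgeR adjusted p 1). Mcm3 measured 47.5, 76.0, 37.8 and 27.5 CPM against 69.1, 54.8, 12.4 and 31.2 (-0.17 ± 0.48). In both genes the values in WT3, EP12 and KO2 were the lowest 3. Pcna had the narrowest span of the members, with 112, 144, 96.9 and 77.9 CPM against 144, 125, 61.1 and 85.3 (-0.05 ± 0.28). Cdc6 was the S phase member whose lowest library was not EP12: it measured 8.85, 12.7, 5.40 and 4.08 CPM against 11.9, 9.38, 5.5 and 4.71, with WT3 lowest. The other 9 S phase members had log2 fold changes of -0.16 (Mcm5) to 0.13 (Rrm2), and no interval excluded 0.

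Of the G1/S group, Ccne1 measured 5.38, 13.3, 4.18 and 3.41 CPM in p63alpha and 12.7, 8.46, 2.03 and 4.19 CPM in p63beta. EP08 and EP10 were again the highest, and the interval of -1.23 to 1.34 was the widest of the members. Ccnd1 measured 118, 192, 126 and 65.4 CPM against 156, 118, 74.9 and 96.9 (-0.17 ± 0.31, SE, edgeR adjusted p 1), with its lowest value in WT3. Ccne2 had its lowest value in KO2, at 3.24 CPM against 4.28 to 12.6 in the other 7. E2f1 had the lowest log2 fold change of the 41 (-0.31 ± 0.47), and Foxm1 and Mybl2 had 0.02 and -0.11.

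As a mean over the members, mitosis stood at 4.72, 5.26, 4.71 and 4.40 log2 CPM in EP07, EP08, EP09 and WT3 and at 5.55, 5.05, 3.61 and 4.79 in EP10, EP11, EP12 and KO2. The group values were 4.77 ± 0.36 and 4.75 ± 0.83 (SD, n = 4 each), and EP10 stood 3.85-fold above EP12. S phase stood at 5.37, 5.89, 5.06 and 4.75 in p63alpha and 5.86, 5.62, 4.08 and 4.85 in p63beta, or 5.27 ± 0.49 and 5.11 ± 0.81 (SD, n = 4 each). The summed basal markers were 13533, 16108, 15933 and 9337 CPM in p63alpha and 19299, 18325, 8587 and 20217 CPM in p63beta. WT3 and EP12 were lowest in summed basal markers and in both means. Of the 8 basal markers taken singly, WT3 was lowest in 5 and EP12 in 2. KO2 had the highest sum but was highest in 1 of the 8, while EP09 was highest in 4. The S phase mean of KO2 was 4.85, near the 4.75 of WT3. Summed suprabasal markers ranged from 88622 to 170937 CPM in p63alpha and from 118423 to 149645 in p63beta. The part of the basal share in these values was not tested. KO2 had the smallest gap between the S phase and mitosis means (0.06), against 0.31 to 0.65 in the other 7 libraries.

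Per length, where genes can be compared with each other, Pcna and Ccnd1 had the highest mean levels in keratinocytes and Pcna in epidermis. In p63alpha keratinocytes Pcna stood at 104 ± 18.3 FPKM (fragments per kilobase of exon, scaled to the library total, SD, n = 3), followed by Ccnd1 at 85.4 ± 12.7, Rrm1 at 80.1 ± 6.58, Rrm2 at 75.5 ± 22.2 and Ube2c at 73.8 ± 21. Neighbours in this order did not differ beyond their spread. In p63beta keratinocytes Ccnd1 stood at 101 ± 19.0 FPKM and Pcna at 98.7 ± 20.2 (SD, n = 3 each). The MCM subunits, which form a ring with a single copy of each, stood at 34.7 to 40.3 FPKM for Mcm2, Mcm3, Mcm4, Mcm5 and Mcm7, within their spread, and at 58.3 ± 7.66 for Mcm6. Cenpf had the lowest level, at 3.38 ± 1.09 FPKM. In p63alpha epidermis Pcna stood at 164 ± 56.0 TPM (SD, n = 4), with Mcm6 at 59.2 ± 23.2 and Ccnd1 at 58.2 ± 28.6. The lowest there was Cdc6 at 2.98 ± 1.67 TPM, with Cenpf at 4.42 ± 1.67 and Cenpe at 4.52 ± 1.81 within its spread. FPKM and TPM were made in different ways, so levels were not compared between the systems.

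The genotype effects of the 2 systems were compared directly with an interaction term over 14656 shared genes. EdgeR called 0 genes (618 at an unadjusted p under 0.05, 4.22%), and among the 41 members 0 were called and 0 were under that unadjusted p. The differences, epidermis minus keratinocytes, ran from -0.40 (E2f1 and Ccnd1) to 0.58 (Cdc20) on the log2 scale. The lowest p was that of Cenpa, with 0.54 ± 0.36 (SE, edgeR unadjusted p 0.16, adjusted p 1) and a 95% interval of -0.24 to 1.32. Of the mitosis members 20 of 22 had a positive difference (median 0.27) and of the S phase members 2 of 13 (median -0.09), beside a median of 0.01 over all genes. The mitosis median was 0.04 without keratinocyte library p63alpha 1, -0.09 without EP10 and 0.55 without EP12.

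A wider set of 117 other cell cycle genes, 51 of mitosis, 42 of replication and 24 of G1/S control, was read in the same fits. In keratinocytes edgeR called 0 of 117, with 8 at an unadjusted p under 0.05, beside 6.85% of all genes. In epidermis it called 0 of 117, with 3 under that unadjusted p, beside 4.64% of all genes. The other mitosis genes were negative in 44 of 51 in keratinocytes (median -0.16), and the other replication genes in 26 of 42 (median -0.01). Of all genes there, 50.3% were negative. In epidermis the medians were 0.03 and -0.11. Ndc80, which ties kinetochores to microtubules, measured 26.7, 24.2 and 21.7 CPM in p63alpha keratinocytes and 18.8, 17.5 and 17.0 CPM in p63beta (-0.45 ± 0.11, SE, edgeR adjusted p 0.448). Sgo1, the protector of centromere cohesion, measured 24.8, 23.7 and 21.1 CPM against 19.1, 17.9 and 16.0 (-0.39 ± 0.12, adjusted p 0.553). In both, every p63beta library lay below every p63alpha library, as in 9 of the 117 and in 5.8% of all genes.

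E2f2, a sister factor of E2f1, had the lowest p of the 117 in keratinocytes. It measured 22.3, 35.4 and 23.5 CPM in p63alpha and 17.1, 15.2 and 15.0 CPM in p63beta, with no overlap (-0.78 ± 0.20, SE, edgeR adjusted p 0.448). DESeq2 called it, as did the authors' deposited table with an adjusted p of 0.0455, and it was the single gene of the 117 so called. In epidermis E2f2 had 0.41 ± 0.32, and the difference between the systems was 1.2 ± 0.45 (SE, edgeR unadjusted p 0.0184, adjusted p 1).

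Myc, the growth-promoting transcription factor, had the lowest p in epidermis, with 151, 102, 124 and 84.9 CPM in p63alpha and 152, 220, 181 and 151 CPM in p63beta (0.61 ± 0.20, SE, edgeR adjusted p 0.726). Its lowest p63beta library lay above its highest p63alpha library by less than the 3 digits printed. Ccnd3, a cyclin D, measured 122, 90.7, 119 and 136 CPM against 138, 141, 194 and 183, again without overlap (0.49 ± 0.18, adjusted p 0.820). Prc1, which bundles microtubules of the central spindle, had 0.43 ± 0.19 (adjusted p 1) with overlapping groups. None of these passed the test over all genes. Groups did not overlap in 2 of the 117 in epidermis, beside 3.07% of all genes.

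Inhibitors of cyclin-dependent kinases were in none of these lists, and of them Cdkn1c alone was read here. EdgeR called it in epidermis, where 0.232% of all genes were called. Cdkn1c, chosen after its values were seen, measured 6.29, 7.07, 13.3 and 5.11 CPM in p63alpha epidermis and 92.1, 63.6, 51.1 and 109 CPM in p63beta. It rose by 3.31 ± 0.35 on the log2 scale (SE, edgeR adjusted p 0.00397), with EP12 the lowest p63beta library here too. In keratinocytes it measured 2.24, 1.73 and 1.43 CPM against 6.86, 5.55 and 7.08 and was not called by edgeR (1.85 ± 0.25, SE, adjusted p 0.121), with no overlap of the groups. The authors' deposited DESeq2 table did call Cdkn1c there, with a log2 fold change of 1.21 and an adjusted p of 2.91e-07. That fold change is a shrunken one, pulled toward no change, so its size is not comparable with the 1.85 of edgeR.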

How the data were processed

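Per the labels' protocols, RNA was made into stranded TruSeq mRNA libraries. Per the submitters' processing notes, STAR, Subread, Salmon and DESeq2 were used with build mm10. The authors deposited raw counts of keratinocyte read pairs per gene, made per the file headers with featureCounts 1.5.2 (strand setting 2, minimum overlap 25), and FPKM derived from them. For epidermis the authors deposited expected counts and TPM from salmon (version not given in the sources used here). In addition, the authors deposited DESeq2 tables with log2 fold changes (shrunken for keratinocytes) and adjusted p-values, in which 14 columns of per-library values were not used.

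Epidermis columns named WT and KO were read as p63alpha and p63beta through the header of the keratinocyte counts. Counts (epidermis rounded) were fitted per system with edgeR 4.0.16 in R 4.3.3: TMM, filterByExpr by group, robust quasi-likelihood F test, Benjamini-Hochberg adjustment over all genes, call at an adjusted p under 0.05. CPM used TMM-scaled library sizes, and mean log2 CPM a prior count of 1. Intervals cover 95%. The interaction was fitted jointly over shared genes. The scripts were tested on simulated data. Of 100 simulated 2-fold changes edgeR called 60 in keratinocytes and 34 in epidermis, and of 100 4-fold changes 93 and 95. False calls numbered 15 and 3. Deviations of same-numbered keratinocyte libraries had correlations of 0.521, 0.480 and 0.151 for numbers 1, 2 and 3 over 12722 genes. Differently numbered libraries gave -0.465 to 0.105, so number 3 stood little above the highest of these. The labels state no pairing, and the numbers were taken to pair the libraries from these values.

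Alternatives were RLE size factors, no filter, DESeq2 1.42.0, limma 3.58.1 on log2 FPKM or TPM (pseudocount 1 or 0.1), leaving out libraries, the replicate block, and the column naming as a term. Members, lists and the rule for named genes were chosen with earlier results of these data known. That rule takes all members, the called genes and the 3 genes with the lowest p per system among the other cell cycle genes, Trp63, and the promoters of the 2 members with the highest mean CPM in epidermis in mitosis and in S phase. Marker lists for melanocytes, endothelium and leukocytes were read as well. Their sums ranged over 467 to 1637, 9.89 to 44.3 and 7.05 to 69.7 CPM in keratinocytes. In epidermis they were 134 to 506, 1.97 to 4.03 and 22.6 to 108 CPM, with melanocyte sums of 134 to 291 in p63alpha and 338 to 506 in p63beta. Epidermis sums of fibroblast and heart muscle markers were 208 to 427 and 8.4 to 26 CPM.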

Additional observations from a re-analysis of the deposited data

Results flagged for a closer look

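In 2 of 86 checks (the 41 members and the mitosis and S phase means, in each epidermis genotype), the library EP08 lay far above the other 3 p63alpha libraries. Aurkb, the kinase of the chromosomal passenger complex, measured 26.9 CPM in EP08, with the next library at 16.5 and the lowest at 14.5. Tyms, thymidylate synthase, measured 28.7 CPM in EP08, with the next at 14.6 and the lowest at 12.9. Chance alone puts about 1 group in 20 past this limit (Dixon's ratio of gap to range, at its 95% critical value for 4 libraries).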

How the results depend on the processing

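No member was called in the main fits or under any alternative, except Rrm2 in keratinocytes with the replicate block and pair 1 left out (1 member called, 0.50, edgeR adjusted p 0.0396), an alternative added after seeing the data. The count over all genes in keratinocytes, 14, was 223 with DESeq2, 37 with the replicate block, and 1 to 4 when a library was left out. With the block and pair 1, 2 or 3 left out it was 585, 0 and 1; the block without pair 2 had 687 genes at an unadjusted p under 0.05 and the cause of these differences was not tested. In epidermis the count of 32 was 141 with DESeq2, 10 to 28 with a library left out, and 8 with the EP-named libraries alone, which are fewer samples. The interaction stayed at 0 calls with RLE and with any library left out. The difference in list means (p63beta minus p63alpha, log2) ranged, with a library left out, from -0.25 to 0.05 for mitosis and -0.08 to 0.16 for S phase in keratinocytes, and from -0.29 to 0.36 and -0.42 to 0.18 in epidermis. Signs of single members were not stable: without p63alpha library 1, 17 of 41 changed sign in keratinocytes, and without EP10, 18 of 41 in epidermis. No paired analysis was possible in epidermis because its columns carry no replicate numbers.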
